A study of Mus musculus with 12 samples.

Results

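The genes described here are those for the enzymes and cofactors that write, copy and erase DNA methylation, namely Dnmt1, Dnmt3a, Dnmt3b, Dnmt3l, Uhrf1, Tet1, Tet2, Tet3 and Tdg. They were chosen by symbol, and all 9 were found in both count tables, out of 23420 genes listed. The cells were R1 mouse embryonic stem cells, kept on gelatin in serum medium with LIF, the cytokine that holds such cells in self-renewal. For 48 h they carried siRNAs to Krr1, whose product helps to build the small subunit of the ribosome (siKrr1 A, siKrr1 C and siKrr1 D), or were controls (siGFP, siNC and Lipo). The labels speak of 3 siRNAs per group, and Lipo is the 1 control whose name gives none. Part of each lysate became an RNA-seq library and the rest a library of ribosome footprints, the stretches of mRNA that ribosomes protect from nuclease, 12 libraries in all.

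Methylation of cytosine in CpG dinucleotides is set on unmethylated DNA by DNMT3A and DNMT3B, with DNMT3L as their catalytically inactive partner, and is copied to the new strand at replication by DNMT1, which UHRF1 brings to hemimethylated CpGs. The TET proteins oxidise 5-methylcytosine to 5-hydroxymethylcytosine and further, and the glycosylase TDG cuts out the last oxidation products so that base excision repair can restore an unmethylated cytosine. In mouse embryonic stem cells Tet1 and Tet2 are the TET genes mainly in use, and the genome gains methylation when the cells leave the naive state. The data hold RNA and ribosome occupancy, not methylation, protein or enzyme activity.

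Tet2 stood out as the only gene of the 9 called in both assays. Its RNA and its footprints were lower in each knockdown lysate than in any control. That also held for Uhrf1, which was called in neither assay. Of all genes tested, 13.4% in RNA and 13.6% in footprints had the knockdown lower without overlap. The de novo genes Dnmt3b (in RNA) and Dnmt3a (in footprints) rose by a smaller amount, and Dnmt1 and Tet3 stood near their control levels. In RNA 1 of the 9 genes was higher and 1 lower at an adjusted p under 0.05 (edgeR quasi-likelihood test, Benjamini-Hochberg adjustment over all genes). Of all 14038 genes tested, 4.8% were called, 2.69% as higher and 2.11% as lower. In footprints 1 of the 9 was again higher and 1 lower, where 6.07% of 13287 genes were called, 3.39% as higher and 2.68% as lower. All 9 passed the filter on low counts in both assays, Tdg with few counts. The median log2 fold change of the 9 was 0.04 in RNA and 0.23 in footprints, against -0.0012 and 0.0067 over all genes tested. The footprint median includes Tdg, which was at 0.48 on 83 counts in all. Log2 fold changes are siKrr1 over control throughout, and levels are in CPM, a gene's count scaled to a common library size, which are not per length and are compared only between libraries of 1 gene.

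The knockdown and the identity of the cells were checked first. In siKrr1 A, C and D, 21.7%, 37.3% and 41.5% of the mean Krr1 RNA of the controls remained, and 18.9%, 37.5% and 31.4% of the Krr1 footprints. Libraries held 31318772 to 39670139 counts on genes in RNA and 21615934 to 28911254 in footprints. Pou5f1 and Sox2, which define pluripotent cells, were present in every library, with RNA levels of at least 2319 and 537 CPM, but the summed RNA level of 9 pluripotency markers was lower in the knockdown cells (6708 to 7993 CPM) than in the controls (8313 to 8404 CPM). Of those markers 3 fell in RNA and 2 in footprints, where 2.11% and 2.68% of all genes tested did. The 8 fibroblast and feeder markers together reached 3.99 to 4.83 CPM in knockdown RNA libraries and 4.46 to 5.30 CPM in controls, with Col3a1 and Lum at 0 in all of them and none of the 5 that could be tested called in either assay. The part of the shift in pluripotency markers in the results below was not tested, and in such bulk samples fewer cells of a type and less RNA per cell cannot be told apart. The labels do not say whether the samples were separate cultures, so p-values measure the spread between these libraries.

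The 3 genes that passed the test in either assay differ in the CpG content of the promoter windows examined. CpG is the dinucleotide that their products act on. The 250 bases before RefSeq transcription starts (GRCm38.p6, which is mm10) are shown 5′ to 3′ on the strand of the gene, with every CpG in capitals: Tet2 at chr3:133544391-133544640 (minus strand), Dnmt3b at chr2:153649199-153649448 (plus strand), the internal start of Dnmt3a at chr12:3891494-3891743 (plus strand) and, for contrast, a start of Dnmt3l at chr10:78049592-78049841 (plus strand), whose own levels shifted without passing the test.
Tet2: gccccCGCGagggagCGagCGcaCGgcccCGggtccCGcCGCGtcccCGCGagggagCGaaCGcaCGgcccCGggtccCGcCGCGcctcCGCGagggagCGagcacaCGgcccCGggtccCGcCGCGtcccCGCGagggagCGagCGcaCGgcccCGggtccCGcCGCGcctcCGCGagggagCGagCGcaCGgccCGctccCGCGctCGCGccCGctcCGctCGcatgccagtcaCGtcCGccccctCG
Dnmt3b: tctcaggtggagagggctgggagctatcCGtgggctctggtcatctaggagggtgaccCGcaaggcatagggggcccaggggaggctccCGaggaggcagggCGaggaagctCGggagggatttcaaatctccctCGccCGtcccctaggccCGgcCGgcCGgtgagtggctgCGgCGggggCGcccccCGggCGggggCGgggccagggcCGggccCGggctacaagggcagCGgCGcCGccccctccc
Dnmt3a: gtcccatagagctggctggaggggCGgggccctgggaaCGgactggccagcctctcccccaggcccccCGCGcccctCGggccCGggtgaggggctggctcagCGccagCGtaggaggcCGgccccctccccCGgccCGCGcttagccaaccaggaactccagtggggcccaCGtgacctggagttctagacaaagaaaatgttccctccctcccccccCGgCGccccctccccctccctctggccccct
Dnmt3l: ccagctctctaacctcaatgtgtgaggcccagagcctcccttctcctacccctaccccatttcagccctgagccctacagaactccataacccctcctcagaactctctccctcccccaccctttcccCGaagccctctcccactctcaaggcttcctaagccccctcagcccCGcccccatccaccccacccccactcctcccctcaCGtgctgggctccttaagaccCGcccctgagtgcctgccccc
The Tet2 window held 51 CpGs, a number reached by 22 of 32841 windows of the same length (0.067%), where the median window held 6. It is built in part of a repeat, since a stretch of 20 bases occurred 4 times in it, which 0.792% of windows match. The Dnmt3b window held 21 CpGs, and the 3 Dnmt3a windows held 38 and 40 (upstream starts, which overlap) and 15 (internal start). The 3 Dnmt3l windows held 3 to 5, below the median. Uhrf1 (10 and 30), Tet1 (15), Tet3 (17), Tdg (19) and Dnmt1 (2, 7 and 26) lay between these extremes or had starts of both kinds. Of the 16 windows of the 9 genes, 11 held the GC box GGGCGG on either strand, found in 32.7% of all windows, and 0 held TATAAA, found in 12.4%. Counts in the tables are per gene, so reads from different starts of a gene were not separated. The annotated spans of Tet2, Tet3 and Dnmt3a reach further upstream than any of their windows, and starts there were not examined. These letters are a description of the sequence, not of binding or methylation.

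Tet2 (chromosome 3, 133463677 to 133545136) encodes the TET dioxygenase that lacks the CXXC DNA-binding domain carried by TET1 and TET3. Its RNA level was 117, 153 and 142 CPM in siKrr1 A, C and D, against 238, 200.2 and 236 CPM in siGFP, siNC and Lipo. The highest knockdown library thus lay below the lowest control, with siKrr1 A lowest. In RNA the order of Tet2 did not follow that of Krr1 throughout, as siKrr1 D kept more Krr1 RNA than siKrr1 C and had less Tet2 RNA. The log2 fold change in RNA was -0.71 ± 0.10 (SE), with means of 137 ± 18.4 CPM in knockdown and 225 ± 21.4 CPM in control cells (SD, n = 3 each; edgeR adjusted p = 0.00672). Tet2 footprints were 143, 182 and 153 CPM in siKrr1 A, C and D, against 252, 225 and 265 CPM in siGFP, siNC and Lipo. The groups were again apart, with siKrr1 A lowest and siKrr1 C highest among the knockdown lysates. Krr1 footprints had that same order. Each siRNA had a single library per assay, and a relation between the levels of Krr1 and Tet2 was not tested. The log2 fold change in footprints was -0.63 ± 0.09 (edgeR adjusted p = 0.00381). A change of this size or more, in either direction, was seen in few genes, as 93.8% of genes in RNA and 93.0% in footprints changed less. Tet2 was called in each of the 6 fits per assay that left out a library, with log2 fold changes of -0.79 to -0.61 in RNA and -0.74 to -0.57 in footprints.

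Tet1 (chromosome 10, 62804570 to 62887469), the other main TET gene of these cells, was called in neither assay. Its RNA level was 60.2, 54.9 and 61.9 CPM in siKrr1 A, C and D, against 64.4, 57.9 and 65.0 CPM in siGFP, siNC and Lipo. These groups overlapped, with a log2 fold change of -0.08 ± 0.08 (edgeR adjusted p = 0.625). Tet1 footprints were 106, 96.5 and 93.3 CPM in siKrr1 A, C and D, against 83.6, 83.0 and 85.6 CPM in siGFP, siNC and Lipo. Here every knockdown library lay above every control, but at 0.23 ± 0.07 the difference missed the threshold (edgeR adjusted p = 0.0656). Because both genes are counted in the same library, their ratio is free of library scaling, although it is not per length and only its difference between libraries can be read. There were 1.35, 1.88 and 1.64 Tet2 footprints for each Tet1 footprint in siKrr1 A, C and D, against 3.01, 2.71 and 3.10 in siGFP, siNC and Lipo. In RNA the same ratio was 1.95, 2.79 and 2.30 in siKrr1 A, C and D and 3.69, 3.46 and 3.64 in siGFP, siNC and Lipo. In both assays the ratio was lower in all 3 knockdown lysates than in any control.

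Tet3 (chromosome 6, 83362373 to 83457208), the TET gene best known from the oocyte and zygote, was counted 250 to 364 times per RNA library. Its level was 8.04 to 8.87 CPM of RNA in knockdown and 7.07 to 9.55 CPM in control libraries, and 7.04 to 9.89 and 7.06 to 9.48 CPM of footprints. The ranges overlapped in both assays, and the log2 fold changes were 0.04 ± 0.14 in RNA and 0.06 ± 0.16 in footprints (edgeR adjusted p = 0.901 and 0.864). Tdg (chromosome 10, 82629814 to 82650799) was counted 11 to 20 times per RNA library and 6 to 20 times per footprint library. RefSeq lists 2 copies named after Tdg elsewhere in the genome (Tdg-ps on chromosome 15 and Tdg-ps2 on chromosome 10), and the tables hold uniquely aligned reads, so reads shared with such copies may not have been counted and the level of Tdg is uncertain. Its log2 fold changes of -0.05 ± 0.39 in RNA and 0.48 ± 0.49 in footprints therefore say little, and neither was called (edgeR adjusted p = 0.955 and 0.613).

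**Figure D1:**
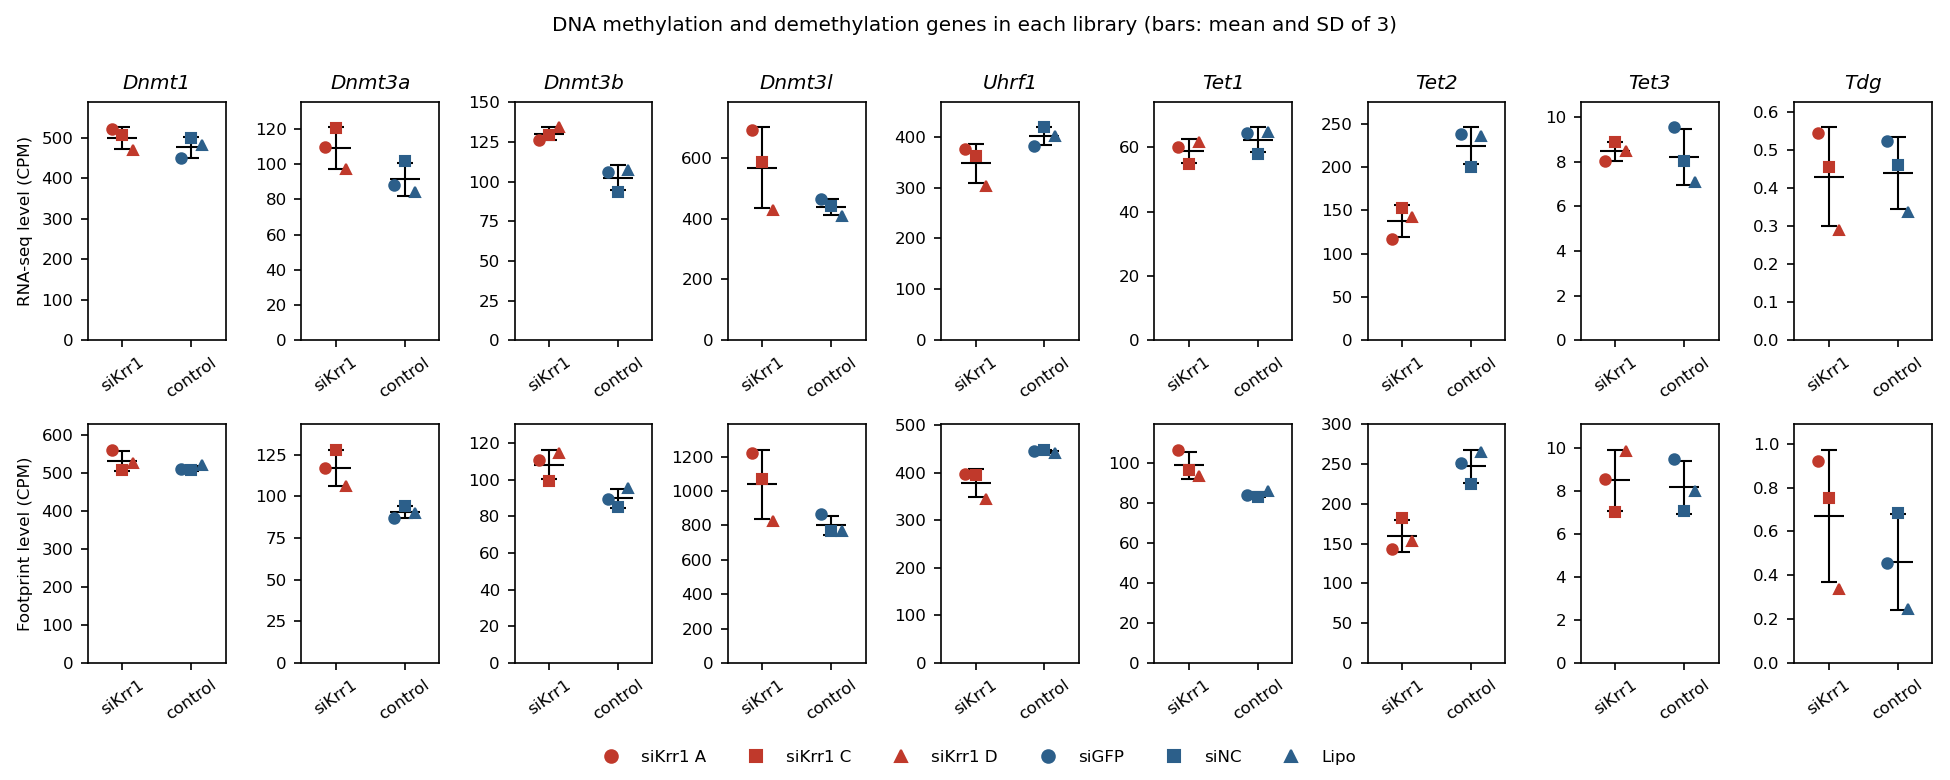
Level (CPM, linear axis from 0) of the 9 genes in the RNA-seq libraries (top) and the footprint libraries (bottom), siKrr1 in red left of control in blue, 1 symbol per library with the mean and SD of 3. Tet2 is separated in both rows, with no knockdown library above 182 CPM and no control below 200.2 CPM, while the points of Dnmt1 and Tet3 overlap between groups.

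The de novo methyltransferase genes and Dnmt3l had higher mean levels in knockdown cells in both assays. Dnmt3b (chromosome 2, 153649411 to 153687730), the enzyme that also methylates pericentromeric satellite repeats, had 126, 130 and 134 CPM of RNA in siKrr1 A, C and D, against 106, 93.5 and 108 CPM in siGFP, siNC and Lipo. The knockdown libraries lay close together and above all controls. Dnmt3b rose in RNA by 0.34 ± 0.08 (means of 130.0 ± 4.11 CPM in knockdown and 102 ± 7.78 CPM in control cells, SD, n = 3 each; edgeR adjusted p = 0.0301). Its footprints were 111, 99.2 and 115 CPM in siKrr1 A, C and D and 89.2, 85.1 and 95.4 CPM in siGFP, siNC and Lipo, again without overlap, at 0.27 ± 0.07 (edgeR adjusted p = 0.0551). The call in RNA rested on the full set of libraries: it was kept in 1 of 6 fits that left out a library (siKrr1 C), and the adjusted p reached 0.145 without siNC.

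Dnmt3a (chromosome 12, 3801559 to 3914443) encodes the second de novo enzyme, whose short form made from the internal start prevails in mouse embryonic stem cells. Dnmt3a footprints were 117, 128 and 106 CPM in siKrr1 A, C and D, against 87.3, 94.5 and 89.8 CPM in siGFP, siNC and Lipo. All 3 knockdown lysates were above the controls, and Dnmt3a rose in footprints by 0.37 ± 0.07 (means of 117 ± 10.8 and 90.5 ± 3.64 CPM in knockdown and control cells, SD, n = 3 each; edgeR adjusted p = 0.0171). In RNA it had 109.9, 121 and 97.1 CPM in siKrr1 A, C and D and 88.1, 102 and 84.1 CPM in siGFP, siNC and Lipo. There siKrr1 D fell below siNC, and the difference of 0.26 ± 0.10 was not called (edgeR adjusted p = 0.16). The footprint call was kept with any knockdown library left out, but not without a control, where the adjusted p was 0.0869 without siGFP, 0.059 without siNC and 0.0972 without Lipo. The difference between its fold changes in footprints and RNA was 0.11 ± 0.14, so the 2 assays were not shown to differ for Dnmt3a (edgeR adjusted p = 1.00).

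Dnmt3l (chromosome 10, 78042287 to 78063622), the inactive partner that stimulates DNMT3A, varied most between the knockdown lysates among the well-counted genes of the group. Its RNA level was 692, 585 and 428 CPM in siKrr1 A, C and D, against 465, 441 and 409.7 CPM in siGFP, siNC and Lipo. Its footprints were 1222, 1070.1 and 825 CPM in siKrr1 A, C and D, against 866, 769 and 765 CPM in siGFP, siNC and Lipo. In both assays siKrr1 A and siKrr1 C lay above all controls, while siKrr1 D lay within the control range. Relative to the control mean, Dnmt3l RNA was thus at 158%, 133% and 97.5% in siKrr1 A, C and D, and its footprints at 153%, 134% and 103%. The log2 fold changes of 0.37 ± 0.14 in RNA and 0.38 ± 0.11 in footprints were as large as those of Dnmt3a and Dnmt3b but had wider errors and were not called (edgeR adjusted p = 0.15 and 0.0805). Without siKrr1 D both were, at 0.55 in RNA and 0.52 in footprints (edgeR adjusted p = 0.0226 and 0.00804). Without siKrr1 A they were smaller, at 0.21 and 0.24 (edgeR adjusted p = 0.383 and 0.165). In each assay Dnmt3l was called in 1 of 6 fits that left out a library. The annotated span of Dnmt3l overlaps that of Aire, and reads on the shared part would be ambiguous.

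Among the genes of maintenance methylation, Dnmt1 had mean levels close to those of the controls while those of Uhrf1 were lower. Dnmt1 (chromosome 9, 20907206 to 20959888) had 522, 507 and 470.0 CPM of RNA in siKrr1 A, C and D, against 449, 499 and 483 CPM in siGFP, siNC and Lipo. Its log2 fold changes were 0.07 ± 0.07 in RNA and 0.05 ± 0.05 in footprints (edgeR adjusted p = 0.658 and 0.616), and the groups overlapped in both assays. Uhrf1 (chromosome 17, 56303337 to 56323486) had 376, 363 and 304 CPM of RNA in siKrr1 A, C and D, against 383, 418 and 402 CPM in siGFP, siNC and Lipo. Uhrf1 footprints were 397, 395 and 344 CPM in siKrr1 A, C and D, against 446, 448 and 442 CPM in siGFP, siNC and Lipo. The groups did not overlap in either assay, and siKrr1 D was lowest in both, but neither difference passed the test: -0.21 ± 0.09 in RNA and -0.23 ± 0.06 in footprints (edgeR adjusted p = 0.2 and 0.0505). The number of Uhrf1 footprints for each Dnmt1 footprint was 0.708, 0.778 and 0.655 in siKrr1 A, C and D, against 0.876, 0.884 and 0.85 in siGFP, siNC and Lipo. In RNA this ratio was 0.694 ± 0.041 in knockdown and 0.841 ± 0.0099 in control libraries (SD, n = 3 each). Both ratios separated the groups, as Uhrf1 did by itself, although neither gene was called alone. The ratios of Dnmt3a to Dnmt3b and of Dnmt3l to Dnmt1 were also taken and overlapped between groups in both assays. How often such ratios separate the groups over all gene pairs was not examined. With DESeq2, which called more genes of the table, the footprints of Dnmt3b, Dnmt3l and Uhrf1 also passed the threshold (DESeq2 adjusted p = 0.025, 0.0133 and 0.0194). DESeq2 called 632 genes higher in footprints, where edgeR called 450 of 13287 (3.39%). Uhrf1 was lower, and edgeR called 356 genes (2.68%) lower there. The number that DESeq2 called lower is not given here, so its Uhrf1 call has no such background.

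All 3 knockdown lysates had Tet2 and Uhrf1 below every control and Dnmt3b above, in both assays. Their levels differed in order from gene to gene. With a single library per siRNA and assay, differences between the siRNAs were not tested. In siKrr1 A, Tet2 was lowest and Dnmt3l highest in both assays. In siKrr1 D, Dnmt3l lay within the controls, Uhrf1 was lowest of the knockdown lysates and Dnmt3b highest, again in both assays. Both assays used parts of the same lysate, so their agreement is not a second observation. In siKrr1 C, Dnmt3a was highest and Tet2 the least reduced, at 68.1% of the control mean in RNA and 73.5% in footprints. Over all 9 genes, 1 was above and 2 below every control in RNA, and 3 above and 2 below in footprints. Groups without overlap were common in these tables, at 27.0% of genes tested in RNA (13.5% with the knockdown higher, 13.4% lower) and 27.8% in footprints (14.2% higher, 13.6% lower).

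**Figure D2:**
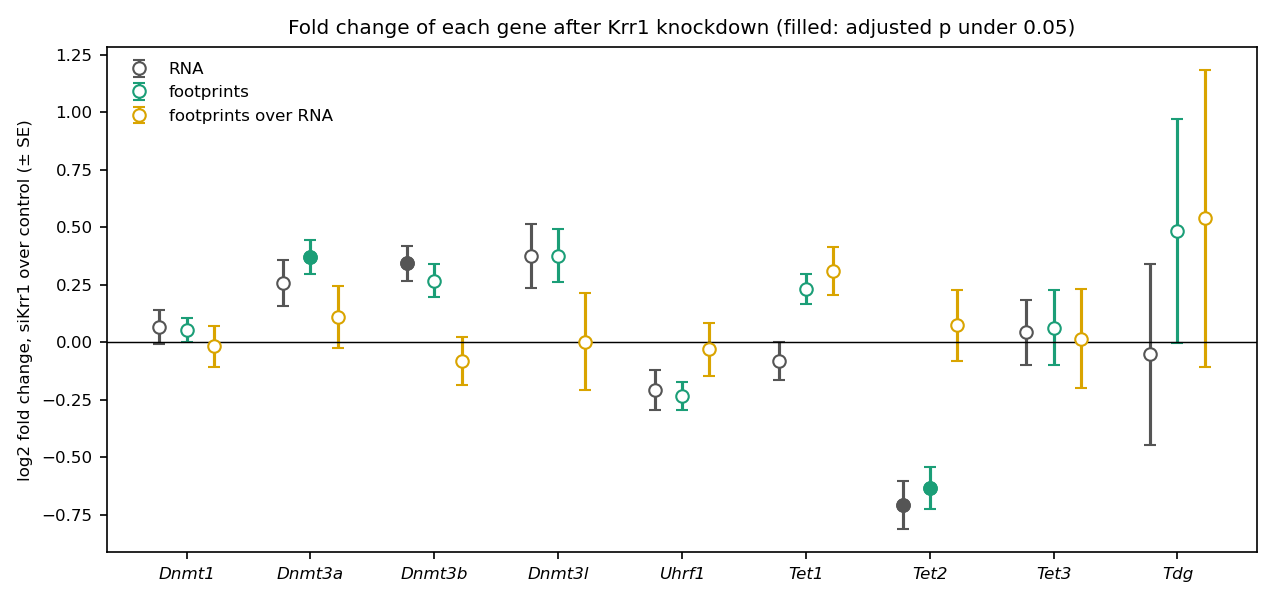
Log2 fold change (siKrr1 over control, ± SE) of the 9 genes in RNA, in footprints and in footprints over RNA, with filled symbols at an adjusted p under 0.05. Tet2 is filled in RNA (-0.71) and footprints (-0.63), Dnmt3b in RNA (0.34) and Dnmt3a in footprints (0.37), and no symbol of footprints over RNA is filled.

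Set among all genes, the changes were moderate apart from that of Tet2. Dnmt3l and Dnmt3b in RNA changed more than 81.1% and 78.8% of genes in absolute log2 fold change, and Dnmt3a and Dnmt3l in footprints more than 81.9% and 82.2%. For Dnmt1 these shares were 26.3% in RNA and 21.8% in footprints.

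**Figure D3:**
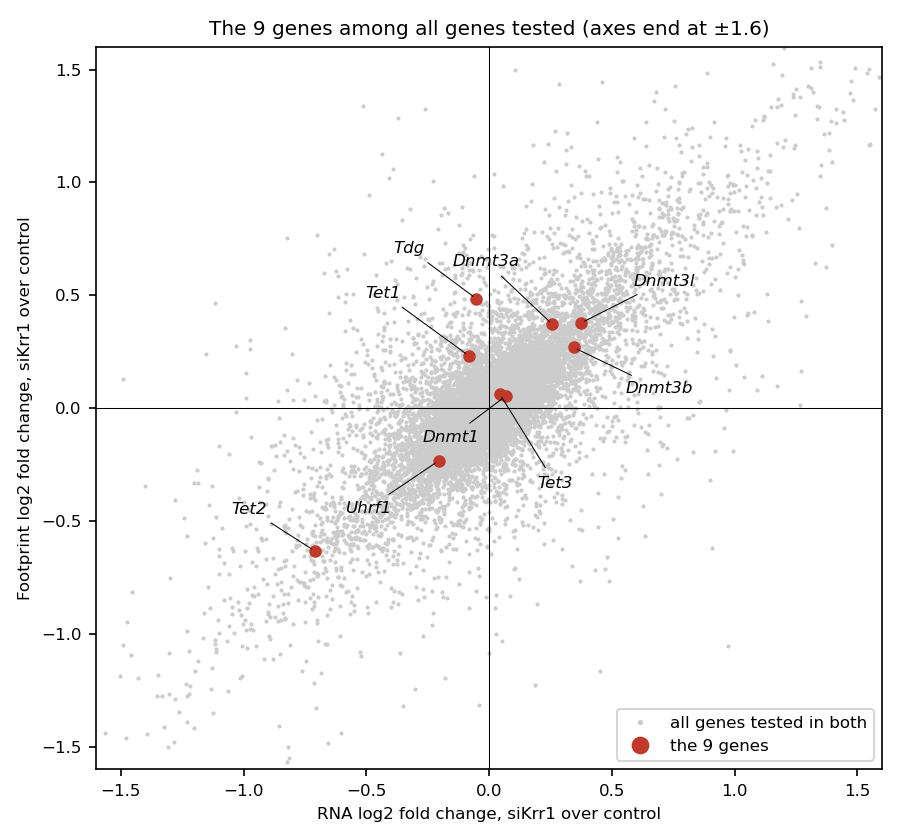
Log2 fold change (siKrr1 over control) in RNA (x) against footprints (y) for genes tested in both assays (grey), with the 9 genes in red; genes beyond 1.6 on either axis lie outside the frame. Tet2 lies at -0.71 and -0.63, and Tet1 lies off the diagonal at -0.08 in RNA and 0.23 in footprints.

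The footprint to RNA ratio of a gene (footprint CPM over RNA CPM of the same lysate) was compared next, as a relative measure of ribosome occupancy per mRNA. No transcript lengths were used, so between genes the ratio also depends on how much of each transcript is coding. Its order among genes is a description, not a measure of translation. In control cells Dnmt3l had the highest ratio of the 9 genes, 1.82 ± 0.0682 (SD, n = 3), above 89.0% of 12336 genes with at least 1 CPM of RNA. Tet1 followed at 1.35 ± 0.0725, above 78.1% of genes. Uhrf1 (1.11), Tet2 (1.10), Dnmt1 (1.07), Tet3 (1.00) and Dnmt3a (0.996) lay near each other and above the median gene (0.845), and their SDs of 0.0374 to 0.127 overlap. Dnmt3b was lowest at 0.879 ± 0.0362, above 52.5% of genes, and the gap to its next neighbour Dnmt3a (SD of 0.0697) was about as wide as their SDs together. Tdg, at 1.02 ± 0.404, rests on too few counts to be placed.

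After Krr1 knockdown no gene of the group was called for a change in this ratio. Tet1 came nearest: the ratio was 1.77, 1.76 and 1.51 in siKrr1 A, C and D, against 1.30, 1.43 and 1.32 in siGFP, siNC and Lipo. Tet1 was the only 1 of the 9 genes whose ratios did not overlap between groups. That is about the share over all genes, 12.1% (6.79% with the knockdown higher, 5.36% lower). The interaction of assay and condition for Tet1 was 0.31 ± 0.11 with an unadjusted p of 0.01 (edgeR adjusted p = 1.00 over 14236 genes), and with the lysate as a block it was 0.31 (adjusted p = 0.406). Across all genes 0 (0.0%) were called by edgeR, 337 had an unadjusted p under 0.05, and DESeq2 called 2. For Tet2, whose RNA and footprints both fell, the interaction was 0.07 ± 0.16. For Dnmt3l, with the highest ratio, it was 0.0022 ± 0.21, and its ratio was 1.84 ± 0.082 in knockdown and 1.82 ± 0.0682 in control lysates (SD, n = 3 each).

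**Figure D4:**
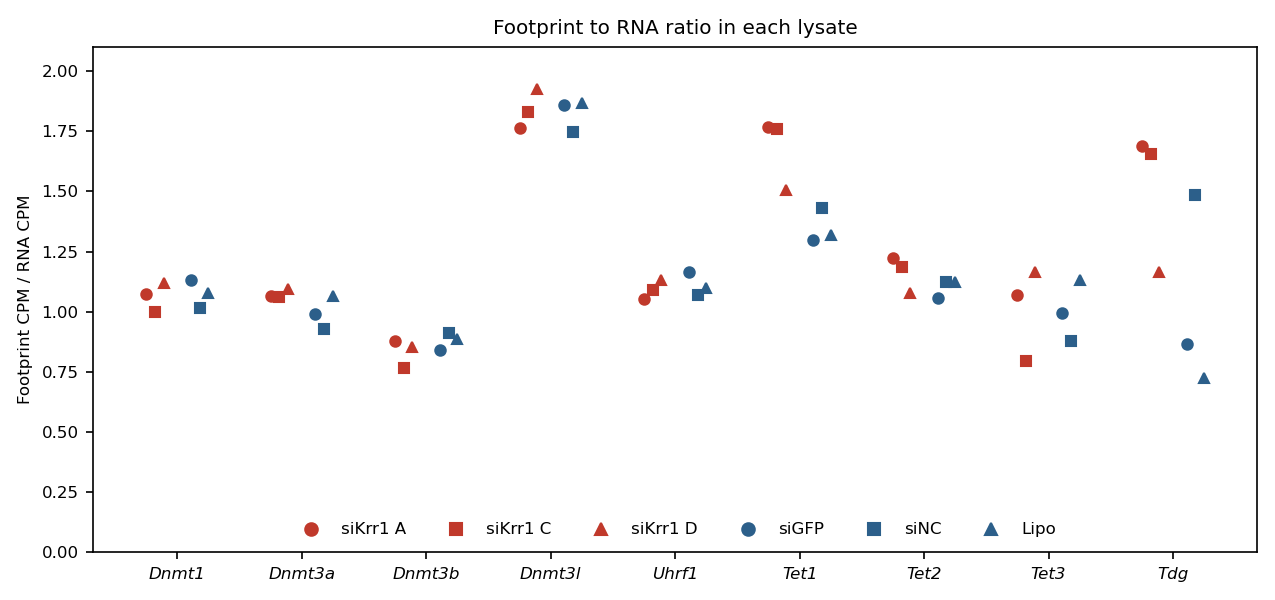
Footprint CPM over RNA CPM in each lysate for the 9 genes, with siKrr1 lysates in red left of control lysates in blue. The 3 siKrr1 points of Tet1 (1.51 to 1.77) lie above its controls (1.30 to 1.43), whereas those of the other genes overlap.

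Genes that act with these enzymes were examined as 5 lists. Among 17 partners of the methyltransferases and guardians of imprints, 2 fell in RNA and 2 in footprints and 0 rose. Over all genes tested, 2.11% fell in RNA and 2.68% in footprints. Zfp57, a zinc finger protein that keeps methylation at imprinted control regions, fell by 0.50 ± 0.08 in RNA and 0.51 ± 0.08 in footprints (edgeR adjusted p = 0.00881 and 0.00595), with 475 ± 43.9 CPM of RNA in knockdown and 671 ± 7.68 CPM in control cells (SD, n = 3 each), and kept its call with each library left out. Prdm14, a repressor of Dnmt3b in mouse stem cells, fell in footprints by 0.45 ± 0.10 and was at -0.34 ± 0.13 in RNA (edgeR adjusted p = 0.0217 and 0.18). The replication clamp Pcna fell in RNA by 0.35 ± 0.08 and was at -0.15 in footprints (edgeR adjusted p = 0.0289 and 0.222). Both calls were lost without single libraries, with adjusted p up to 0.0991 for Prdm14 and 0.15 for Pcna, each without Lipo. Over the list, log2 fold changes had a median of -0.02 in RNA and -0.07 in footprints.

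Of 11 tested TET partners and cofactor enzymes, 2 fell in RNA, 3 fell in footprints and 1 rose in footprints, against 2.11%, 2.68% and 3.39% of all genes tested. The median log2 fold change was -0.08 in RNA and -0.04 in footprints, against -0.0012 and 0.0067 over all genes. Nanog, a pluripotency factor that binds TET1 and TET2, fell by 0.58 ± 0.09 in RNA and 0.60 ± 0.08 in footprints (edgeR adjusted p = 0.00758 and 0.00335), and Apobec2, a member of the cytidine deaminase family, by 1.02 ± 0.17 and 1.20 ± 0.19 (edgeR adjusted p = 0.0106 and 0.00632). Apobec2 had an RNA level of 4.63 ± 0.983 CPM in knockdown and 9.40 ± 0.702 CPM in control cells, and its RNA call was lost without siGFP or Lipo (adjusted p up to 0.0636). Prdm14, in this list too, was the remaining fall in footprints. Ogt, the O-GlcNAc transferase that associates with TET proteins, rose in footprints by 0.26 ± 0.06 and was at 0.22 in RNA (edgeR adjusted p = 0.0299 and 0.143), with a footprint call that was lost without siKrr1 D and without each of the controls (adjusted p up to 0.165, without Lipo).

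In the methyl donor cycle, which supplies S-adenosylmethionine, 10 genes were tested in RNA and 9 in footprints. Of these 0 rose in either assay, where 2.69% and 3.39% of all genes tested did. Shmt2, the mitochondrial serine hydroxymethyltransferase, fell by 0.31 ± 0.06 in footprints and was at -0.27 in RNA (edgeR adjusted p = 0.00986 and 0.0663). Its footprint call was lost without siNC or Lipo (adjusted p up to 0.0706). A list of 14 genes held base excision repair factors, other DNA glycosylases that act beside TDG, and Gadd45a and Gadd45b. Of these, Gadd45a rose in RNA (2.69% of all genes did), both Gadd45a and Gadd45b rose in footprints (3.39% of all genes), and 0 fell. Both are stress-induced genes proposed to take part in demethylation and are not repair enzymes themselves, and 0 of the repair enzymes listed were called. Gadd45a was at 0.48 ± 0.11 in RNA and 0.48 ± 0.12 in footprints (edgeR adjusted p = 0.0309 and 0.0464), and Gadd45b at 0.35 and 0.45 (0.128 and 0.0413). With any 1 control library or siKrr1 D left out, 0 genes of this list were called in either assay. None of the 9 genes listed as methyl-CpG readers was called by edgeR in RNA, nor any of the 8 tested in footprints. Without siKrr1 C, 2 of them rose in each assay. Of all genes, 759 rose in RNA and 791 in footprints without that library, against 378 and 450 with it. The members with the highest RNA CPM, Uhrf2 (a relative of Uhrf1) and Mbd3 (of the NuRD complex), were at 0.28 and -0.10 in RNA (edgeR adjusted p = 0.0974 and 0.693).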

How the data were processed

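The deposited values are raw counts per gene symbol, for which the submitters' processing notes name STAR, HTSeq and the build mm10. The strand setting is not given in the sources, so reads of antisense neighbours cannot be told apart. Knockdown columns carry letters that match no title number and were assigned to their group only. Reads on no gene (31.2% to 33.4% of unique alignments in RNA, 57.5% to 63.3% in footprints) stayed out of library sizes.

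Per assay, every gene kept by filterByExpr entered the quasi-likelihood test of edgeR 4.0.16 (R 4.3.3) with TMM factors of 0.984 to 1.04. P-values were adjusted by Benjamini-Hochberg and called under 0.05. CPM used TMM-scaled library sizes. Standard errors come from the F statistic. The footprint to RNA change is the interaction in 1 model over 12 libraries, without the lysate as replicate block. Lysates pair the assays per the labels: deviations from the group means of 6117 genes (at least 20 CPM) correlated within lysates with r of 0.266 to 0.713. No 2 libraries of a group were duplicates (chi-square per degree of freedom 3.88 to 27.2). The fits were tested on simulated data.

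Alternatives were RLE factors, no filter, DESeq2 1.42.0, a joint fit of the 12 libraries, plain library sizes for the ratio, the replicate block and leaving out each library. For the lists, leaving out libraries was added after seeing the data. The genes and lists were chosen with earlier results of these data known. Named were the 9 genes, Krr1, up to 4 called genes per list by adjusted p (or, with none called, 2 by RNA level), and the 2 genes with the RNA profile most like each called gene. Promoter sequences and coordinates are RefSeq's (GRCm38.p6); all 9 symbols matched, with 16 windows. Of the methyl donor cycle, 1 result is not reported here.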

Additional observations from a re-analysis of the deposited data

How the results depend on the processing

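The fall of Tet2 in RNA and footprints was called under every alternative run (RLE factors, no filter, DESeq2, the joint fit, each library left out). Of the 9 genes, the number called in RNA did not change with RLE factors, without the filter, with DESeq2 or in the joint fit. In footprints 3 were higher and 2 lower without the filter and with DESeq2. With a library left out, 0 to 1 were higher and 1 lower in RNA, and 0 to 2 higher and 1 to 2 lower in footprints. Over all genes, 378 were higher and 296 lower in RNA, with 582 and 477 without the filter, 666 and 536 with DESeq2, and 63 to 759 and 51 to 539 with a library left out. In footprints 450 were higher and 356 lower, with 784 and 616 without the filter. With DESeq2 632 were higher in footprints, and its number of lower genes is not given here. Leaving out a library gave 67 to 791 higher and 64 to 546 lower there. For footprints over RNA, 0 genes were called; 2 were higher without the filter and with DESeq2, 0 to 1 with a lysate left out, and 5 higher and 1 lower with the lysate as replicate block, which called none of the 9. The cause of these shifts was not tested. Values near 0 changed sign: Tet3 ranged from -0.051 to 0.17 in RNA, -0.065 to 0.18 in footprints and -0.10 to 0.16 in their ratio with a library left out, Tdg from -0.25 to 0.18 in RNA, and in the ratio Dnmt1 from -0.062 to 0.016 and Dnmt3l from -0.030 to 0.032, with Dnmt3l at -0.0016 without the filter. Tdg had 95 RNA and 83 footprint counts in all, which limits its precision; why it was counted so rarely was not tested.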

Other observations

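Genes whose silencing in mammals depends on DNA methylation were examined as values. Of 28 imprinted genes listed, 26 were tested in RNA, where 3 rose and 1 fell, and 24 in footprints, where 3 rose and 1 fell. Over all genes tested, 2.69% rose and 2.11% fell in RNA, and 3.39% rose and 2.68% fell in footprints. These were the same 4 genes in both assays. The median log2 fold change was 0.16 in RNA and 0.31 in footprints, against -0.0012 and 0.0067 over all genes. Sgce (epsilon-sarcoglycan) rose by 1.11 ± 0.14 in RNA and 0.89 ± 0.19 in footprints, with 14.2 ± 2.17 CPM of RNA in knockdown and 6.59 ± 0.567 CPM in control cells (SD, n = 3 each; edgeR adjusted p = 0.00372 and 0.0232). Its neighbour Peg10, a retrotransposon-derived gene, rose by 0.47 ± 0.12 and 0.49 ± 0.11 (edgeR adjusted p = 0.0475 and 0.0316). Rian, a noncoding RNA of the Dlk1-Meg3 region, rose by 0.73 ± 0.15 and 0.83 ± 0.18 (edgeR adjusted p = 0.0238 and 0.0242). Whether the reads of this noncoding RNA in the footprint libraries came from ribosomes was not tested. Meg3, Mirg and Dlk1 of the same region were at 0.52, 0.45 and 0.64 in RNA without being called (edgeR adjusted p = 0.0616, 0.12 and 0.112, chosen after their values were seen). Phlda2, a placental growth regulator, fell by 0.68 ± 0.17 and 0.66 ± 0.11 (edgeR adjusted p = 0.0414 and 0.00702). Only the RNA call of Sgce and the footprint call of Phlda2 among these 8 calls survived in all 6 fits that left out a library, and the adjusted p of the others reached 0.185, for Peg10 in RNA without Lipo. Without siGFP, siNC or Lipo 2, 1 and 1 imprinted genes rose in RNA and 0 fell, and 1, 0 and 0 rose in footprints and 1 fell in each case.

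Of 18 germline genes that methylation keeps silent in somatic cells, 15 were tested in RNA and 16 in footprints. In RNA 0 rose and 1 fell, where 2.69% and 2.11% of all genes tested did. In footprints 2 rose and 0 fell, where 3.39% and 2.68% did. The median log2 fold change was 0.11 in RNA and 0.21 in footprints, against -0.0012 and 0.0067 over all genes. The tubulin gene Tuba3a fell in RNA by 0.67 ± 0.15 and was at -0.42 in footprints (edgeR adjusted p = 0.0313 and 0.164). The germ cell helicase Ddx4 and the piRNA pathway gene Tdrd1 rose in footprints by 0.45 ± 0.12 and 1.03 ± 0.22 (edgeR adjusted p = 0.049 and 0.0226) and were at 0.40 and 0.39 in RNA (0.211 and 0.36). With any 1 control library left out, none of these genes was called by edgeR in either assay.

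Over the 6 RNA libraries, the genes with the profile most like that of Tet2 among 7145 with at least 20 CPM were Ube4a (r = 0.992) and Jam2 (r = 0.990). In footprints r with Tet2 was -0.67 for Ube4a and 0.97 for Jam2. For Dnmt3b they were Yeats2 and Tor2a (r = 0.983 each; 0.37 and 0.55 in footprints), and for Dnmt3a Mogs and Cul7 (0.974 and 0.969; 0.09 and 0.80 in footprints). With 6 libraries such values are easily reached, as 254 genes had r above 0.9 with Tet2.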
